A study of Mus musculus with 10 samples.

Results

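The photoreceptor ribbon synapse was followed here through 10 genes taken by symbol: Ctbp2, Bsn, Pclo, Rims2, Cacna1f, Cacna2d4, Cabp4, Stx3, Cplx3 and Cplx4. All 10 were found among the 57010 gene rows of the deposited table, and all 10 passed the filter on low counts that left 15539 genes for testing. RNA was measured in retinas of mice aged 6 to 8 weeks, 14 days after injection into the vitreous of an adeno-associated virus (AAV) carrying green fluorescent protein (GFP). In one group 5 mice received AAV2-GFP, in the other 5 received AAV206-GFP, and the groups share the reporter, the route and the time. No uninjected retina was analysed here, and neither the promoter of the reporter nor the strain or sex is given in the sources used here.

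A ribbon synapse is the output contact of photoreceptors and bipolar cells, in which a plate of protein, the ribbon, tethers glutamate vesicles above the release site so that transmitter can be released continuously in the dark. Calcium enters through an L-type channel clustered below the ribbon, and vesicles fuse through SNARE proteins whose action is set by complexins. Loss of the channel, of its auxiliary subunit or of its calcium-binding partner is known to impair transmission from photoreceptors to bipolar cells. Several of the 10 genes are not restricted to photoreceptors: Bsn, Pclo and Rims2 also serve conventional synapses, Cplx3 is also made by bipolar and amacrine cells, and Ctbp2 has a widely expressed product. In whole retina, fewer cells of a type and less RNA per cell cannot be told apart.

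Ctbp2 (ENSMUSG00000030970, chr7:132987563-133124354, minus strand of mm10, the same assembly as GRCm38) shows what a value per gene contains at this synapse. The gene has separate start sites, one set for the transcriptional co-repressor CtBP2 and an internal one for RIBEYE, the main protein of the ribbon. In GENCODE M21 the transcript from the internal start (Ctbp2-214, first base 133015248) codes for 988 codons, against 445 and 420 codons in the transcripts from the distal starts. The deposited value sums all of them. RefSeq places the internal start 1 base away, at 133015247. The 250 bases before it, chr7:133015248-133015497 on the minus strand, are shown because they lie directly before the start of the ribbon form. The last of them is the GENCODE first base, and all lie downstream of the distal GENCODE starts (133123367 and 133123166). The core motif of the photoreceptor factor CRX is in capitals as read on this strand.
Ctbp2 internal start, 250 bases upstream: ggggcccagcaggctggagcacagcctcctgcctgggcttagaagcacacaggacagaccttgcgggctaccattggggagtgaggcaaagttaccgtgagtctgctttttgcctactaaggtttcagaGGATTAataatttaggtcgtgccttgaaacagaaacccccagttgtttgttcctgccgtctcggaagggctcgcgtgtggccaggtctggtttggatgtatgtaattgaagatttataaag
The motif was searched as TAATCC and its complement GGATTA in windows from 250 bases before to 50 bases after each RefSeq start. It occurred 121 bases before the internal Ctbp2 start, and once in the Stx3 window, 30 bases after the start. It was found in 2 of the 7 windows of the 6 genes that had one, and in 7.06% of all 32851 windows. Cabp4, Cacna2d4, Cplx4 and Rims2 had no window. A match of 6 letters is a description and not a shown binding site.

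Levels are given as CPM, read counts scaled to a common library size with the trimmed mean of M values (TMM), and comparison between genes is made only per kilobase of exon. On that scale the order over the 10 libraries was led by Cplx4 at 236 ± 8.64 CPM per kilobase (SD, n = 10), and it had no overlap in range with the next gene. Cabp4 at 153 ± 20.9 and Stx3 at 151 ± 5.60 CPM per kilobase overlapped each other. Cacna2d4 (100.1 ± 8.91), Cplx3 (84.3 ± 7.51), Cacna1f (73.7 ± 12.3) and Ctbp2 (66.2 ± 5.34 CPM per kilobase) formed a run in which each range overlapped the next. The active zone scaffolds were lowest, with Rims2 at 29.6 ± 1.46 and Bsn and Pclo overlapping at 14.7 ± 1.84 and 12.96 ± 1.85 CPM per kilobase. Exon lengths were the summed exons of all basic transcripts, so genes with several starts are understated on this scale. Over all annotated transcripts Cabp4 had 3518 exon bases in place of 1433, Stx3 5711 in place of 4521, and Cplx3 2953 in both. Cacna2d4 had 9478 in place of 5803 and Cacna1f 9089 in place of 6079. Ctbp2 had 6220 in place of 4095 and Rims2 10389 in place of 7839. The place of Cabp4 in the order, and that of Cacna2d4 against Cplx3, therefore depend on which transcripts are counted.

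With AAV206-GFP, 1 of the 10 genes differed from AAV2-GFP past the threshold: Cabp4, the calcium-binding partner of the channel, fell by 18.8%. The other 9 did not pass an adjusted p of 0.05 in edgeR's quasi-likelihood test over all 15539 genes. Over all tested genes 11.2% passed, 5.95% higher and 5.3% lower, so 1 of 10 is near the background. The median log2 fold change of the 10 genes was 0.04 and that of all tested genes was -0.0095. The groups did not overlap for 2 of the 10, Ctbp2 (higher) and Stx3 (lower), and for 9.78% of all tested genes, 5.41% higher and 4.36% lower. At an unadjusted p under 0.05 there were 3 of the 10 and 4352 of all tested genes.

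**Figure D1:**
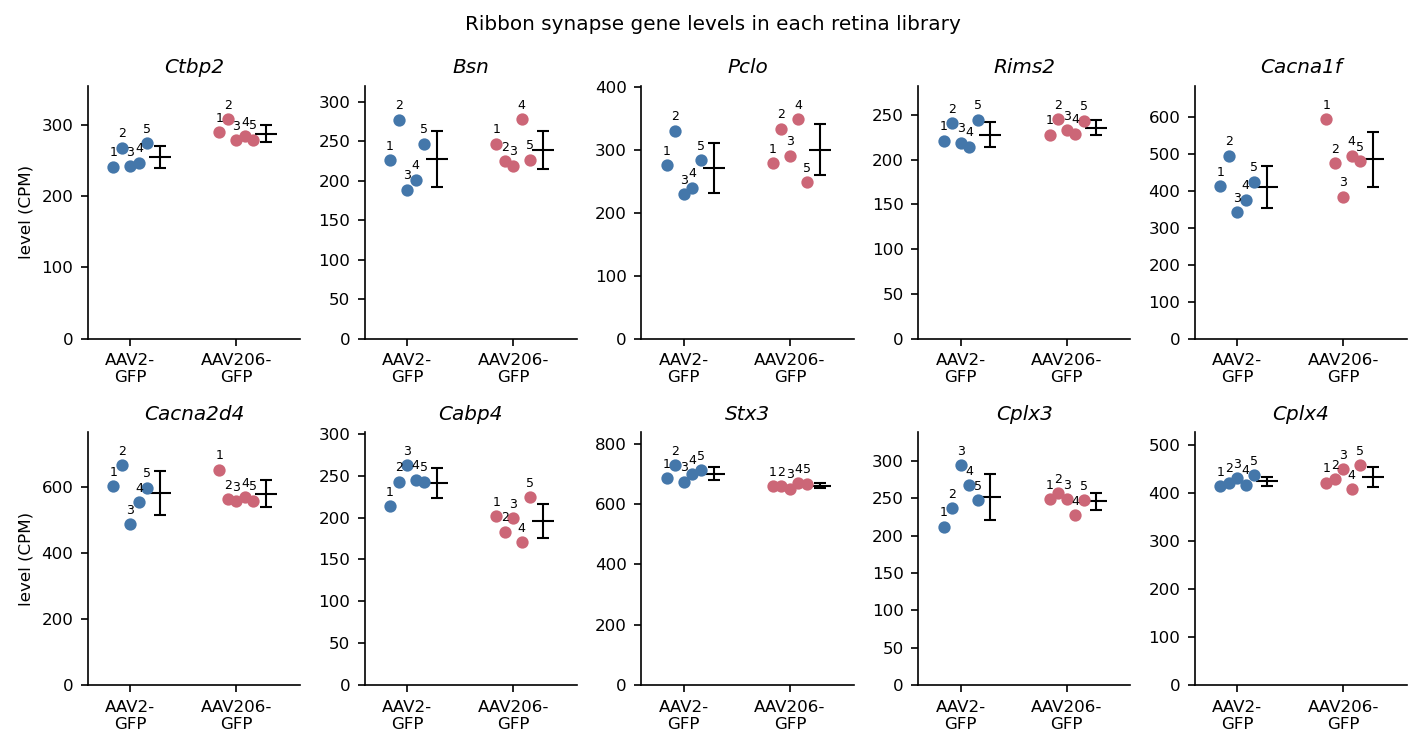
Level of each gene in CPM (vertical axes, from 0) in the 5 AAV2-GFP and 5 AAV206-GFP libraries, labelled by replicate number, with mean and SD beside the points. Cabp4 lies lower with AAV206-GFP at 196 against 241 CPM, while in Ctbp2 and Stx3 the points of the groups do not overlap.

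Of the channel genes, Cabp4 (ENSMUSG00000024842, chr19:4135423-4144033) was at 214, 243, 262, 246 and 243 CPM in AAV2-GFP replicates 1 to 5. In AAV206-GFP replicates 1 to 5 it was at 202, 183, 200, 171 and 225 CPM. The groups overlapped through AAV2-GFP replicate 1, which lay below AAV206-GFP replicate 5. The group means were 241 ± 17.5 and 196 ± 20.5 CPM (SD, n = 5). The log2 fold change was -0.30 ± 0.08 (SE; 95% interval -0.46 to -0.14; edgeR adjusted p = 0.0194). Without AAV206-GFP replicate 2 the edgeR adjusted p was 0.0587 (log2 fold change -0.28, with 6.82% of all genes passing), and without AAV206-GFP replicate 4 it was 0.0514 (-0.26, with 6.72%). In the other 8 fits that left out 1 library Cabp4 stayed past the threshold. Over the fits with 1 library left out, 6.31% to 12.2% of all genes passed. With the replicate number as a block, Cabp4 passed (edgeR adjusted p = 0.0389), as did 6.98% of all genes.

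Cabp4 and the orphan receptor gene Gpr152 are annotated on opposite strands and share 131 exon bases. Mean levels of Gpr152 were 177 CPM in the AAV2-GFP mice and 148 CPM in the AAV206-GFP mice. Cabp4 had whole counts in every library, but strand-specific counting is not given in the sources used here, so reads in the shared bases cannot be told apart.

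Cacna1f (ENSMUSG00000031142, chrX:7607083-7635196), the pore-forming subunit of the L-type channel, was at 413, 495, 342, 376 and 424 CPM in the AAV2-GFP replicates. With AAV206-GFP it was at 595, 475, 384, 495 and 480 CPM. Replicate 1 was the highest AAV206-GFP library, and replicates 2, 3 and 5 lay below AAV2-GFP replicate 2, so the groups overlapped. The log2 fold change was 0.24 ± 0.11 (SE; 95% interval 0.02 to 0.47; edgeR unadjusted p = 0.0356, adjusted p = 0.146), which did not pass. Its direction held in all 24 alternatives, and it was past the threshold in none of them (adjusted p from 0.0566 to 0.371).

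Cacna2d4 (ENSMUSG00000041460, chr6:119236526-119352407), the auxiliary subunit that carries the channel to the terminal, was at 602, 666, 488, 554 and 598 CPM with AAV2-GFP. With AAV206-GFP it was at 653, 563, 557, 569 and 559 CPM, so that 4 libraries lay close together and replicate 1 above them. The log2 fold change was -0.0030 with a 95% interval of -0.17 to 0.16 (edgeR adjusted p = 0.985). The 3 genes of the channel complex thus gave 1 fall, a difference in the other direction that did not pass, and an interval that spans 0.

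Among the scaffolds, Ctbp2 was at 241, 268, 242, 247 and 274 CPM in the AAV2-GFP replicates and at 289, 308, 278, 284 and 279 CPM in the AAV206-GFP replicates. Every AAV206-GFP library was above every AAV2-GFP library, although the gap between 274 and 278 CPM was small. Means were 254 ± 15.5 against 287 ± 12.3 CPM (SD, n = 5). The log2 fold change was 0.18 ± 0.06 (SE; 95% interval 0.05 to 0.30; edgeR adjusted p = 0.0612). The gene was therefore not past the threshold with edgeR. It passed with DESeq2 (adjusted p = 0.0230, where 12.6% of genes passed) and with a minimum count of 50 (edgeR adjusted p = 0.0497, 14.4% of genes). Scaled to rod marker counts its log2 fold change was 0.07 (edgeR adjusted p = 0.427), and without AAV2-GFP replicates 1 and 4 it was 0.13 (edgeR adjusted p = 0.309). Ctbp2 carried decimals in 5 libraries, a sign of reads divided with another gene, and the annotation gives it 314 exon bases in common with Fgfr2, which was at 4.04 CPM or less in every library. Whether the co-repressor or the ribbon form differed was not tested, since the table has no transcripts.

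Bsn (ENSMUSG00000032589, chr9:108096022-108190384) encodes Bassoon, which anchors the ribbon to the release site. It was at 226, 278, 189, 201 and 247 CPM with AAV2-GFP and at 247, 225, 219, 278 and 227 CPM with AAV206-GFP. The groups overlapped over most of their range, and the log2 fold change was 0.07 with a 95% interval of -0.14 to 0.28 (edgeR adjusted p = 0.679).

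Pclo (ENSMUSG00000061601, chr5:14514918-14863459) encodes Piccolo, a relative of Bassoon with a short form, Piccolino, at ribbons. Its levels were 275, 330, 229, 240 and 283 CPM with AAV2-GFP and 279, 333, 290, 349 and 249 CPM with AAV206-GFP. The groups overlapped widely, with a log2 fold change of 0.14 and a 95% interval of -0.07 to 0.36 (edgeR adjusted p = 0.380). Since every library held decimals for Pclo, some of its reads were divided with another gene and its counts are uncertain.

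Rims2 (ENSMUSG00000037386, chr15:39198261-39684372) encodes an active zone protein that links vesicles to calcium channels. It was at 221, 241, 219, 215 and 245 CPM with AAV2-GFP and at 228, 246, 233, 229 and 244 CPM with AAV206-GFP. It varied less between mice than Bsn and Pclo, with a coefficient of variation of 6.02% and 3.54% against 15.6% and 10.1% for Bsn and 14.7% and 13.6% for Pclo (AAV2-GFP first). The log2 fold change was 0.05 with a 95% interval of -0.07 to 0.17 (edgeR adjusted p = 0.623). For Bsn, Pclo and Rims2 the sign of the difference was not stable: all 3 turned negative when levels were corrected for exon length, as described below.

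Of the fusion genes, Stx3 (ENSMUSG00000041488, chr19:11775118-11819403), the syntaxin of ribbon terminals, had a small spread. It was at 686, 728, 674, 699.8 and 712 CPM with AAV2-GFP and at 659, 659, 651.5, 669 and 667 CPM with AAV206-GFP. All AAV206-GFP libraries lay below all AAV2-GFP libraries, with coefficients of variation of 3.03% and 1.08%. The log2 fold change was -0.08 ± 0.05 (SE; 95% interval -0.18 to 0.02; edgeR adjusted p = 0.277), which did not pass.

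The complexins of ribbon synapses, Cplx3 and Cplx4, replace the Cplx1 and Cplx2 of conventional synapses and clamp or promote vesicle fusion. Cplx4 (ENSMUSG00000024519), made by photoreceptors, was at 415, 422, 432, 418 and 437 CPM with AAV2-GFP and at 422, 430, 449.8, 408 and 458 CPM with AAV206-GFP. Its log2 fold change was 0.03 with a 95% interval of -0.08 to 0.14 (edgeR adjusted p = 0.754). Cplx3 (ENSMUSG00000039714, chr9:57599992-57606281) was at 212, 237, 294, 268 and 248 CPM with AAV2-GFP and at 249, 257, 249, 228 and 247 CPM with AAV206-GFP. The AAV2-GFP mice spanned the whole AAV206-GFP range, and the log2 fold change was -0.03 with a 95% interval of -0.20 to 0.13 (edgeR adjusted p = 0.809). As ratios of AAV206-GFP to AAV2-GFP the intervals ran from 0.945 to 1.10 for Cplx4 and from 0.872 to 1.09 for Cplx3.

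**Figure D2:**
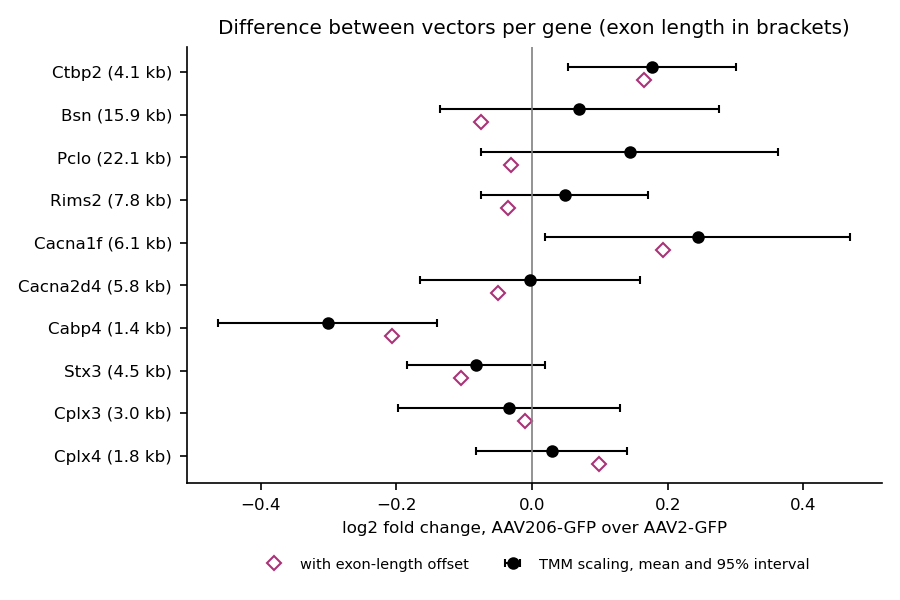
Log2 fold change of each gene, AAV206-GFP over AAV2-GFP (horizontal axis), as a black point with its 95% interval, and as an open diamond after a correction for exon length. Cabp4 at -0.30 is the gene past the threshold, and the diamonds of Bsn, Pclo and Rims2 lie on the other side of 0.

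In some libraries the long and the short members moved against each other. In AAV2-GFP replicate 3 the genes Bsn, Pclo, Cacna1f, Cacna2d4 and Stx3 were at the lowest level of their group, and Cabp4 and Cplx3, which are among the 4 with the shortest exon length, at the highest. Exon lengths ran from 1433 bases for Cabp4 and 1815 for Cplx4 to 15938 for Bsn and 22051 for Pclo. Over all tested genes with a length (98.4%), the median of long genes (over 4324 bases) minus that of short genes (up to 2478 bases), each relative to the gene's mean, was -0.31 log2 units in AAV2-GFP replicate 3 and -0.12 in replicate 4. It was 0.21 in AAV206-GFP replicate 4, where Bsn and Pclo were highest and Cabp4, Cplx3 and Cplx4 lowest in their group. In the other 7 libraries it lay between -0.0049 and 0.07, and there the order of the members by length varied. In AAV2-GFP replicate 2, at 0.05, Bsn, Pclo, Cacna1f, Cacna2d4 and Stx3 were the highest of their group. Relative to their means over all libraries, Cplx3 was at -0.07, Cplx4 at -0.02 and Cabp4 at 0.16 log2 units in that library. In AAV2-GFP replicate 1, at -0.0020, Ctbp2, Cabp4, Cplx3 and Cplx4 were the lowest of their group. In AAV206-GFP replicate 3, at 0.06, Ctbp2, Bsn, Cacna1f, Cacna2d4 and Stx3 were the lowest of theirs.

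**Figure D3:**
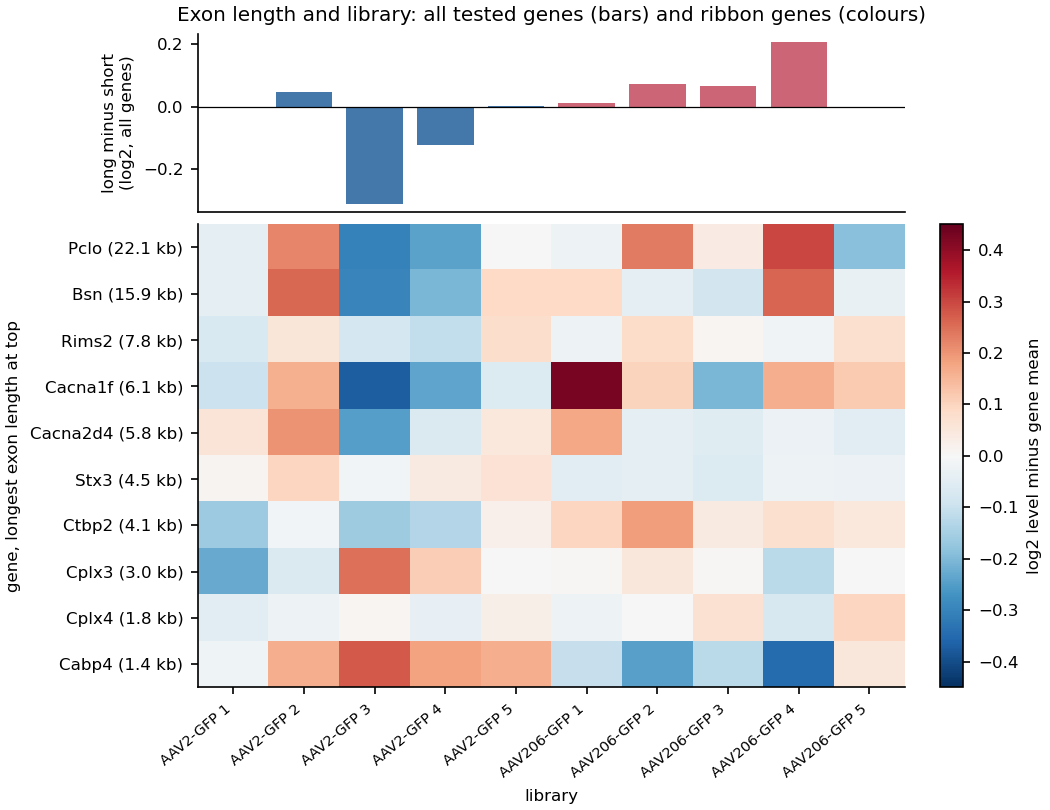
Bars give the median level of long genes minus that of short genes in each library (log2), over all tested genes. Colours give each ribbon synapse gene's log2 level minus its mean, with genes ordered by exon length from 22051 bases (top) to 1433 bases (bottom). AAV2-GFP replicate 3 is low for long genes and AAV206-GFP replicate 4 is high.

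The length pattern also differed between the groups. The median log2 fold change was 0.06 over long genes, -0.02 over genes of middle length and -0.09 over short genes. A fit with a length correction per library, chosen after seeing the data, was therefore added. In it Cabp4 was at -0.21 ± 0.06 (log2, SE; edgeR adjusted p = 0.0344), smaller but past the threshold, as were 11.8% of all genes. The fit took Cabp4 at 1433 exon bases, and its 3518 bases over all annotated transcripts were not tried. Ctbp2 was at 0.17 (edgeR adjusted p = 0.0540) and Stx3 at -0.10 (edgeR adjusted p = 0.102). Pclo went from 0.14 to -0.03 and its standard error from 0.10 to 0.06, and Bsn went from 0.07 to -0.07 and its standard error from 0.10 to 0.06. RNA integrity values per library were not analysed here, and the part of RNA quality in this pattern was not tested.

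Beyond the 10 genes, 47 others of the synaptic terminal were listed by role, and all were tested. Of these 4 passed (8.51%, against 11.2% of all tested genes), 1 higher and 3 lower, and the median log2 fold change was -0.03. Of the 16 genes of vesicle fusion and vesicle proteins 0 passed with edgeR, DESeq2 or limma-voom, and of the 5 of vesicle recycling 0. Over all genes 11.2%, 12.6% and 10.6% passed with these tools, and 0 in lists this short is not far from that. An unadjusted edgeR p under 0.05 was reached by 3 of the 16, 0 of the 5 and 4352 of all 15539 tested genes. Among the 11 active zone scaffold genes 1 was lower, among the 6 of calcium channels, pumps and stores 1 was higher, and among the 9 of cleft and adhesion 2 were lower.

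The 3 genes that fell had similar fold changes and no overlap between the groups. Lrit2, which encodes a membrane protein with leucine-rich repeats, was at 225 to 255 CPM (median 239) with AAV2-GFP and 156 to 187 CPM (median 183) with AAV206-GFP; its log2 fold change was -0.42 ± 0.06 (SE; edgeR adjusted p = 0.000619). Dlg4, which encodes the scaffold PSD-95 found on the presynaptic side in photoreceptor terminals, was at 742 to 970 against 561 to 739 CPM, and its log2 fold change was -0.41 ± 0.08 (SE; edgeR adjusted p = 0.00445). Unc13a, the vesicle-priming factor Munc13-1, was at 205 to 264 against 153 to 204 CPM, and its log2 fold change was -0.42 ± 0.08 (SE; edgeR adjusted p = 0.00464). Unc13a carried decimals in all 10 libraries. These 3 genes passed in all 24 alternatives.

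Cacna1d, which encodes another L-type channel pore, rose from a mean of 61.8 ± 5.41 to one of 77.0 ± 10.7 CPM (SD, n = 5). Its log2 fold change was 0.32 ± 0.09 (SE; edgeR adjusted p = 0.0368). AAV206-GFP replicate 5, at 61.3 CPM, lay within the AAV2-GFP range. Cacna1d passed in 3 of the 10 fits that left out 1 library (adjusted p from 0.00708 to 0.0980), failing without AAV2-GFP replicates 1, 3 or 4 or AAV206-GFP replicates 1, 2, 3 or 4. It passed in 10 of the 14 other alternatives and failed with the length correction (edgeR adjusted p = 0.0572), the replicate block (0.0736), scaling to rod marker counts (0.134) and without AAV2-GFP replicates 1 and 4 (0.142). It carried decimals in 9 libraries. Among the most abundant genes of the list that did not pass were Slc17a7, the vesicular glutamate transporter, at a log2 fold change of -0.0083, the ribbon-binding protein gene Unc119 at -0.07 and Tulp1 at -0.09 (edgeR adjusted p from 0.478 to 0.943). Slc17a7 and Unc119 changed sign under some alternatives.

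**Figure D4:**
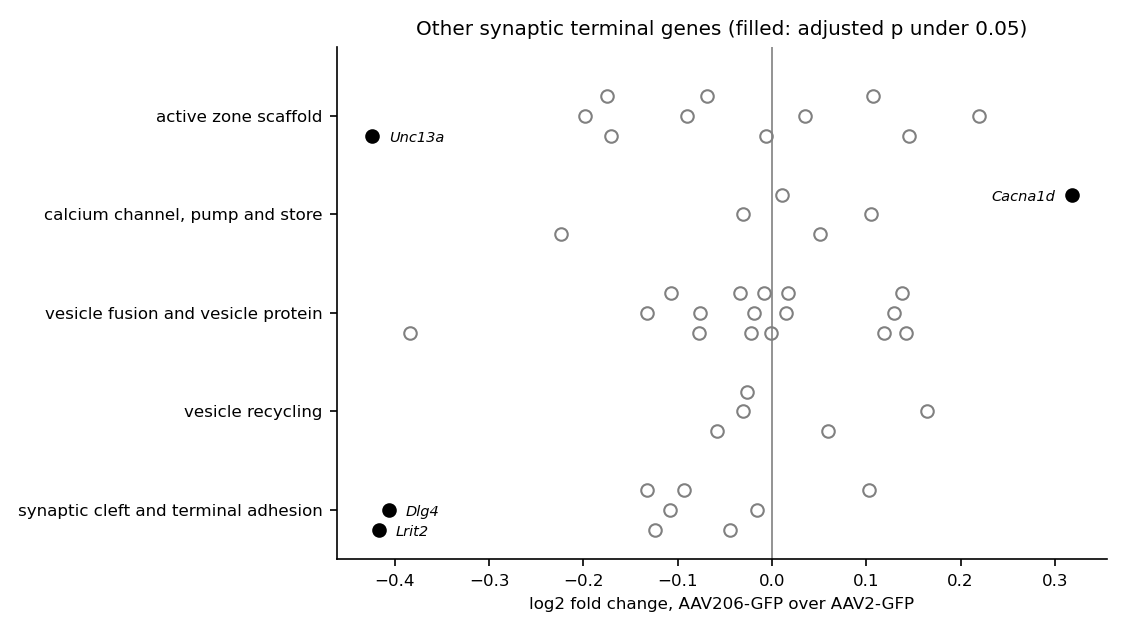
Log2 fold change, AAV206-GFP over AAV2-GFP (horizontal axis), of the 47 other terminal genes by role, each a point, filled where the adjusted p was under 0.05. Lrit2, Dlg4 and Unc13a lie between -0.42 and -0.41 and Cacna1d at 0.32, while the others are open.

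The cells that carry these synapses were checked with marker lists. Summed rod markers were at 51077 to 54284 CPM with AAV2-GFP and 54784 to 60229 CPM with AAV206-GFP (exact permutation test, two-sided, p = 0.00794, adjusted over 2 tests 0.00794). Of the 8 rod markers 2 were higher and 1 lower past the threshold, and the lower one, the rod transducin gene Gngt1, was at a log2 fold change of -0.47 (edgeR adjusted p = 0.00387). Summed cone markers were at 773 to 832 and 840 to 890 CPM (exact permutation test, two-sided, p = 0.00794, adjusted over 2 tests 0.00794). Of the 7 cone markers 2 were higher, the cone opsin Opn1mw at 0.47 (edgeR adjusted p = 0.000881) and Gnat2 at 0.24 (edgeR adjusted p = 0.0123), and 1 was lower, Gngt2 at -0.53 (edgeR adjusted p = 0.00902). Summed bipolar markers overlapped, at 764 to 1042 and 653 to 1111 CPM. Of the 7 bipolar markers 4 had a positive log2 fold change, with a median of 0.07, and 1 passed, Grm6 at -0.66 (edgeR adjusted p = 0.00225, decimals in all 10 libraries). Relative to rod marker counts, a scaling that moved the median of all genes by -0.11, Cabp4 was at -0.41 (edgeR adjusted p = 0.00123) and Stx3 at -0.19 (edgeR adjusted p = 0.0147), both past the threshold, as were 19.7% of all genes.

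Other cell types moved with the groups or with single libraries, and their part in these results was not tested. Fits that left libraries out bear on those libraries only, and not on a difference shared by a whole group. Amacrine sums overlapped (730 to 843 and 769 to 846 CPM), as did horizontal (66.3 to 97.8 and 71.7 to 92.9), ganglion (907 to 1072 and 853 to 975), Müller (1960 to 2865 and 2090 to 2446) and RPE sums (7.19 to 24.1 and 9.06 to 15.7 CPM). Lens sums were 14.6 to 33.2 against 1.61 to 15.8 CPM, with 1 of the 6 lens markers at 0 in every library, and erythrocyte sums 67.8 to 85.8 against 101 to 319 CPM. Interferon genes ran from 80.8 to 588 CPM with AAV2-GFP, highest in replicate 4, against 84.3 to 106 CPM, and microglia markers from 22.0 to 177 CPM, highest in replicate 1, against 17.8 to 24.7 CPM. T cell markers reached 10.6 CPM in AAV2-GFP replicate 1 and at most 0.776 CPM with AAV206-GFP. Past the threshold and lower were 1 of 7 ganglion, 2 of 4 lens, 1 of 5 microglia and 5 of 7 interferon genes tested. Higher were 4 of 5 erythrocyte markers, against 11.2% of all tested genes in either direction. Of the amacrine, horizontal, Müller and RPE markers 0 passed, but 0 of the 5 Müller markers had a positive log2 fold change (median -0.19). Without AAV2-GFP replicates 1 and 4, Cabp4 was at a log2 fold change of -0.35 (edgeR adjusted p = 0.0229, where 6.18% of all genes passed).

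**Figure D5:**
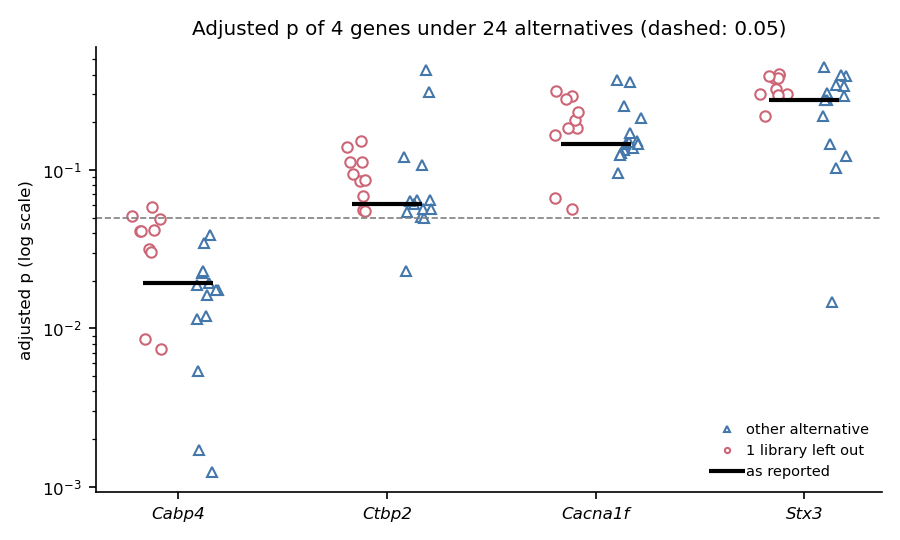
Adjusted p (log axis) of Cabp4, Ctbp2, Cacna1f and Stx3 as reported (black bars), in the 10 fits that left out 1 library (circles) and under 14 other alternatives (triangles). Cabp4 lies below the dashed line at 0.05 in all but 2 fits, while Ctbp2 is below it in 2 and Stx3 in 1.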

How the data were processed

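Total RNA of 10 retinas was sequenced, and groups and replicate numbers were read from the sample titles. The deposited values were expected counts per gene, not scaled between libraries. STAR 2.7.10b, RSEM 1.3.1 and build mm10 are named per the submitters' processing notes, and the annotation release is not given in the sources used here. Of the deposited values 5.95% carried decimals, and all were rounded before testing. Totals ran from 10989843 to 12752604, at which 3 counts are 0.232 to 0.274 CPM, for counting error only. The members had 1903 to 8715 counts per library.

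Symbols and exon lengths came from GENCODE M21. Genes kept by filterByExpr (minimum count 10) were fitted with edgeR 4.0.16 in R 4.3.3 (TMM, quasi-likelihood F test, no covariates), with Benjamini-Hochberg adjustment over 15539 genes and an adjusted p under 0.05 as threshold. A log2 fold change above 0 means a higher level with AAV206-GFP. Standard errors are the absolute log2 fold change over the square root of F. DESeq2 1.42.0 and limma 3.58.1 served as alternatives, among 24 in all. The procedure was run on simulated counts with no length pattern and with changes larger than that of Cabp4. That run cannot show how a length pattern or a change of that size was handled here. No pair of libraries within a group was a duplicate (chi-square per degree of freedom 3.71 to 23.1). Whether each library is 1 mouse is taken from the design text, and p-values measure the spread between these samples.

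The members and gene lists were chosen with earlier results of these data known. Named were all 10 members, the other terminal genes past the threshold (at most 12) with the 4 most abundant not past it, and at most 4 rod, cone or bipolar markers past it. Gpr152, Fgfr2, Gnat2, Gngt2 and the genes in the last part were named after their values were seen. Of the genes this rule names, 2 are not reported here.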

Additional observations from a re-analysis of the deposited data

Results flagged for a closer look

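In 1 of the 20 group values of the 10 genes, a single library stood apart, with its distance to the closest library of the group taking up most of the group's range. Chance reaches this in about 1 of 20. Cacna2d4 was at 653 CPM in AAV206-GFP replicate 1, against 557 to 569 CPM in the other 4 libraries, a ratio of 0.875. The same library was the highest of its group for Cacna1f, at 595 CPM. Without it the log2 fold change of Cacna2d4 was -0.05 and that of Cacna1f 0.16 (edgeR adjusted p = 0.708 and 0.315).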

How the results depend on the processing

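Of the 10 genes, Cabp4, Cacna1f, Ctbp2 and Stx3 kept their direction in all 24 alternatives, and the other 6 did not. The count of members past the threshold, 1 as reported, was 2 with scaling to rod marker counts (both lower), and 2 with a minimum count of 50 and with DESeq2 (1 higher in each, Ctbp2). It ranged from 0 to 1 when 1 library was left out, as did the count of lower members. Of the other terminal genes 14 passed with scaling to rod marker counts. Over all genes 3065 passed with that scaling, 985 without AAV2-GFP replicates 1 and 4, and 991 to 1912 with 1 library left out, fewest without AAV2-GFP replicate 4. The rod sum without AAV2-GFP replicates 1 and 4 had a log2 ratio of 0.093 (exact permutation test, two-sided, p = 0.0536). The cause of these changes was not tested.

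Signs reversed as follows, none past the threshold. Scaled to rod markers, Bsn was at -0.033, Rims2 at -0.058 and Cplx4 at -0.079. With the length correction, Bsn was at -0.075, Pclo at -0.031, Rims2 at -0.035, Slc17a7 at 0.011 and Unc119 at 0.026. Cacna2d4 was at 0.0062 and Slc17a7 at 0.0014 with upper-quartile scaling, and Cacna2d4 at 0.0025 with a minimum count of 50, 0.0023 with limma-voom and 0.0017 with the replicate block. Rims2 was at -0.0017 without AAV2-GFP replicates 1 and 4. With 1 library left out Cacna2d4 ranged from -0.061 to 0.049, Cplx3 from -0.089 to 0.027 and Slc17a7 from -0.036 to 0.019. Same-numbered libraries did not deviate together (correlations -0.05 to 0.04 over 5 pairs, none best matched by its own number). These correlations cannot show whether same-numbered libraries shared a day or a batch, which the sample labels do not give. With the replicate block 1085 of all genes passed.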

Other observations

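Several of these genes have a close relative in the same table, and the pairs, chosen after their values were seen, often differed in sign. Beside Ctbp2 at a log2 fold change of 0.18, its paralogue Ctbp1 was at -0.18 ± 0.06 (SE; edgeR adjusted p = 0.0748). Beside Unc13a at -0.42, Unc13b, the Munc13-2 of photoreceptor terminals, was at 0.22 ± 0.08 (SE; edgeR adjusted p = 0.0770), from means of 592 ± 71.5 and 689 ± 41.5 CPM (SD, n = 5). The complexins of conventional synapses, Cplx1 and Cplx2, were at -0.13 and 0.14 (edgeR adjusted p = 0.183 and 0.150). Rims1 was at -0.0060 beside Rims2 at 0.05 (edgeR adjusted p = 0.971 and 0.623). Of these genes Unc13a was past the threshold, and differences between the members of a pair were not tested.

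The ratio of Cacna1f to Cabp4 in CPM, pore to calcium-binding partner, was 1.93, 2.04, 1.31, 1.53 and 1.75 in AAV2-GFP replicates 1 to 5. In the AAV206-GFP replicates it was 2.95, 2.59, 1.92, 2.90 and 2.13. AAV206-GFP replicate 3 overlapped the AAV2-GFP group. The genes differ in exon length, and the ratio was lowest in AAV2-GFP replicate 3, where long genes were lowest. It was not tested, since the pair was chosen after the values were seen.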
